A study of Mus musculus with 142 samples.

Results

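The 33 genes described here are linked to ATF4 and the integrated stress response, and they were followed in cultured mouse oligodendrocyte precursor cells (OPCs) across brain region, genotype and day of differentiation. They were taken by name from a list in 4 roles, with no measured value in the rule. The members were chosen with earlier results of these data known. The roles are 6 transcription factors (Atf4, Atf3, Atf5, Ddit3, Cebpb, Cebpg), 11 stress effectors (Trib3, Chac1, Sesn2, Ddit4, Nupr1, Gdf15, Fgf21, Stc2, Eif2ak3, Ppp1r15a, Vegfa), 11 amino acid synthesis genes (Asns, Psat1, Phgdh, Psph, Shmt2, Mthfd2, Aldh1l2, Pck2, Pycr1, Aldh18a1, Cth) and 5 amino acid transport genes (Slc7a11, Slc7a5, Slc7a1, Slc7a3, Slc3a2). All 33 passed the filter on low counts, Fgf21 only through the K27M groups of day 5 where it was high, out of 23003 genes tested and 47665 genes with a count.

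The cultures came from pups of the first postnatal week (P5 to P7) of AMGFAP-Cre;K27M breedings, in which Cre driven by a human GFAP promoter acts in neural stem and progenitor cells and switches on histone H3.3 K27M from its own locus, and from their control littermates. Brainstem and dorsal telencephalon were pooled by region and genotype and immunopanned on an antibody to PDGFRa. The 16 groups were brainstem or telencephalon, Control or K27M, on day 0 in proliferation medium (PDGF, neurotrophin-3, CNTF and forskolin) or after 1, 2 or 5 days in differentiation medium (thyroid hormone, CNTF and forskolin). Each group held cultures 38, 41 and 42, with 8 or 9 wells in all. Wells of a culture share their cells, so the wells of a culture and day were summed and n = 3 cultures per group, and gene counts do not show the mutated codon. Levels are CPM (counts per 1 M counts, on scaled library sizes), and a gene is called at an adjusted p under 0.05 over all genes tested (edgeR quasi-likelihood test).

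The 142 libraries held 26.6 to 455.4 M (mega) read pairs, with a median of 46.9 M and a second highest of 84.7 M. The 6 OPC markers summed to 2640 to 5316 CPM on day 0, while the 6 microglial markers summed to 0.161 to 1.19 CPM and the 7 neuronal markers to 26.8 to 35.9 CPM. The 7 mature oligodendrocyte markers went from 255 to 1834 CPM on day 0 to 33110 to 65760 CPM on day 5, and the 7 cycling genes went from 2177 to 3451 CPM down to 117 to 551 CPM. The 8 astrocyte markers summed to 264 to 892 CPM on day 0 and to 421 to 13400 CPM on day 5. The labels number 4 batches without saying of what; each holds 1 region, so batch and region cannot be told apart, and within a region culture 38 is 1 batch and cultures 41 and 42 the other, and passage differed between lines, at 3 to 8 in brainstem controls, 1 to 6 in brainstem K27M and 1 to 4 in the telencephalon.

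In the integrated stress response, kinases such as PERK (Eif2ak3) phosphorylate eIF2, which lowers translation in general while raising that of ATF4. ATF4 pairs with C/EBP proteins on elements that join a C/EBP and an ATF site, and it induces amino acid synthesis enzymes, amino acid transporters and further stress regulators such as CHOP (Ddit3) and TRIB3. GADD34 (Ppp1r15a) returns eIF2 to its unphosphorylated state. In oligodendrocytes the pathway is known for its part in the response to the load that myelin proteins and lipids put on the endoplasmic reticulum. Because ATF4 is set largely by translation, its mRNA is not a measure of pathway activity.

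The element can be read in the members' own promoters. Its core was searched as TGATGNAA on both strands of RefSeq windows (GRCm38.p6) from 250 bases before to 50 after the annotated start. Of the 29 members with a window, 9 held the core (31.0%), against 389 of 13636 tested genes with a window (2.85%) and 1304 of all 32851 windows (3.97%); members had a mean of 1.17 windows and tested genes 1.27. The 9 were Atf3, Trib3, Chac1, Nupr1, Fgf21, Asns, Pck2, Pycr1 and Slc7a11, and Aldh1l2, Cth, Slc7a5 and Slc7a3 had no window. The list was made of genes linked to ATF4, so the share describes the list. The stretches that follow lie before the start of each gene and are shown for the 8 members whose core lies there; each is written 5′ to 3′ on the gene's strand, with the core in capitals, where TTGCATCA and TTACATCA are the core read from the other strand.
Chac1, chr2:119351009-119351096, plus strand: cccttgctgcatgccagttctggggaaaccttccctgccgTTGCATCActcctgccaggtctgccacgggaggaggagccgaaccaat
Nupr1, chr7:126625533-126625620, minus strand: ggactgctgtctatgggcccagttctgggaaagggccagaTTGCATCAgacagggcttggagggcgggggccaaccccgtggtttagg
Fgf21, chr7:45615582-45615669, minus strand: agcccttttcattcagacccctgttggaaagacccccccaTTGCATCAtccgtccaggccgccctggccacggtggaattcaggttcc
Pck2, chr14:55540123-55540210, plus strand: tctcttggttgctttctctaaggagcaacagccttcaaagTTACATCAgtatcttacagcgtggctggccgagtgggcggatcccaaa
Slc7a11, chr3:50443614-50443719, minus strand: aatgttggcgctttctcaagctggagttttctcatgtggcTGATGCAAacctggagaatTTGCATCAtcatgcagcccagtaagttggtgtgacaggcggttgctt
Asns, chr6:7693210-7693272, minus strand: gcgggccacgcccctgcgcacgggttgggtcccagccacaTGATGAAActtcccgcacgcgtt
Pycr1, chr11:120643804-120643891, minus strand: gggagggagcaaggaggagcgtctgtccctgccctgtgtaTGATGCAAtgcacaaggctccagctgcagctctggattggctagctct
Atf3, chr1:191183396-191183483, minus strand: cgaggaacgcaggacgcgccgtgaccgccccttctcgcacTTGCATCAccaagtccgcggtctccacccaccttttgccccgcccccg
Slc7a11 held the core 2 times, in both orientations, and in Trib3 it lay just after the start. No factor binding was measured here, and a match of letters is a description of the sequence.

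Compared per length, as TPM (transcripts per 1 M transcripts) averaged over the 16 groups, the most abundant member was Psat1, an aminotransferase of serine synthesis, at 70.6 TPM. Atf4 followed at 38.1, Phgdh, the first enzyme of serine synthesis, at 29.7, Slc3a2 at 21.7 and Ddit4 at 19.3 TPM. The least abundant were Trib3 at 0.463, Nupr1 at 0.254, Gdf15 at 0.158 and Fgf21 at 0.0136 TPM.

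During differentiation of control cells members moved in both directions, as genes did in general. By day 5 Atf3, Ddit3, Cebpb, Chac1, Vegfa, Ppp1r15a, Ddit4, Eif2ak3, Cebpg and Slc3a2 rose in both regions, while Asns, Shmt2, Mthfd2, Pck2, Pycr1, Aldh18a1, Slc7a5, Slc7a1, Slc7a3, Sesn2, Gdf15 and Stc2 fell in both. In brainstem controls 10 of 33 members rose and 13 fell, where 34.2% of all genes rose and 29.9% fell. In telencephalon controls 14 rose and 12 fell, where 34.3% of all genes rose and 27.9% fell. By role, 4 of 6 transcription factors rose in the brainstem and 5 of 6 in the telencephalon, and none fell. Of the 11 synthesis genes none rose, and 7 fell in the brainstem and 6 in the telencephalon, with a median log2 change of -1.003 and -0.898 against 0.07 and 0.13 over all genes. In bulk cultures, fewer cells of a type and less RNA per cell cannot be told apart, and the oligodendrocyte, cycling and astrocyte markers given above moved over the same days; their part in these changes was not tested.

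**Figure D1:**
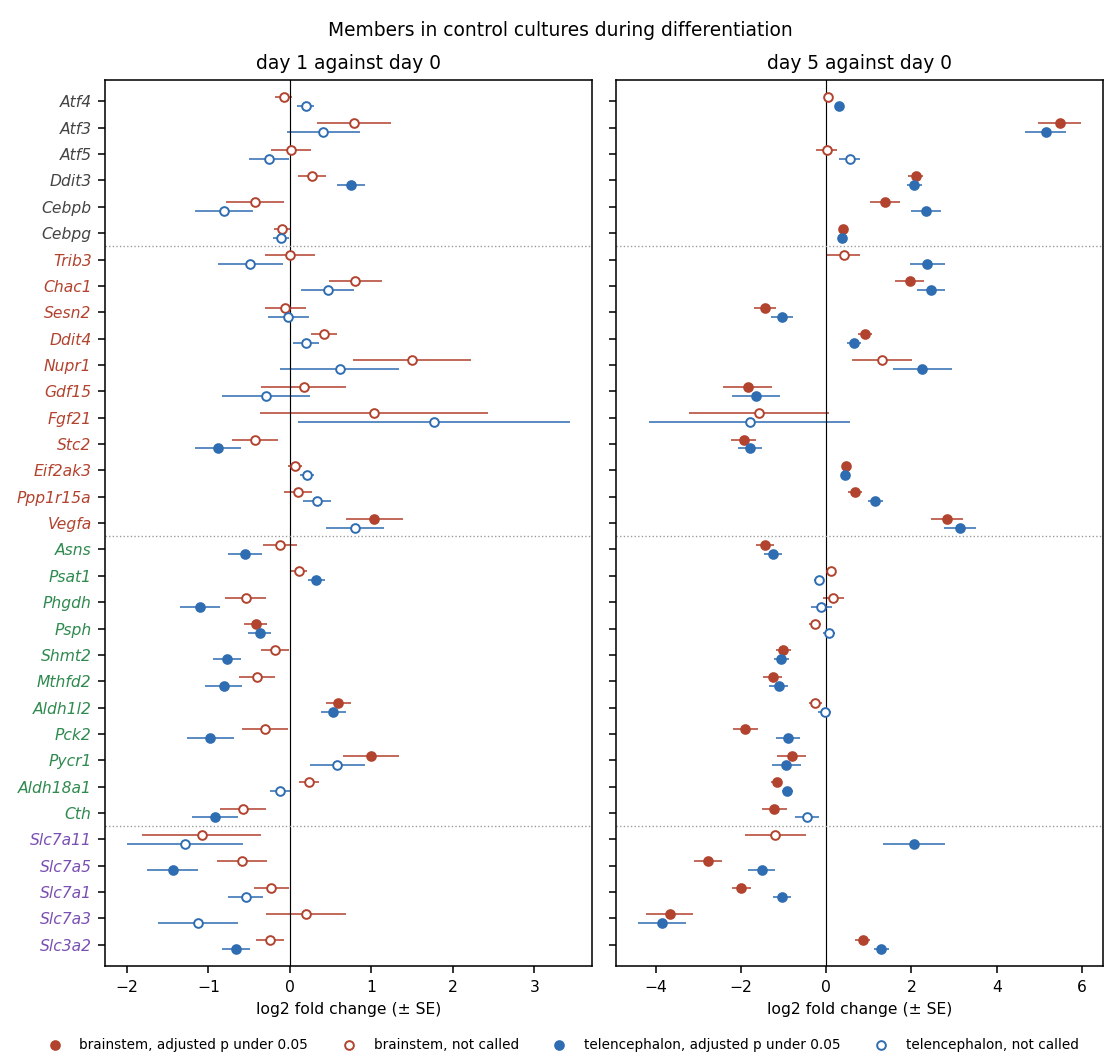
Log2 fold change (horizontal axis, points, with SE as bars) of each member in control cultures on day 1 (left) and day 5 (right) against day 0, for the brainstem (red) and the telencephalon (blue), 3 cultures each. Filled points passed an adjusted p of 0.05; on day 5 most transcription factors lie right of 0 and most synthesis and transport genes left of it, and gene names are coloured by role.

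Among the transcription factors, Atf4 itself moved little. Its levels in brainstem control cultures 38, 41 and 42 were 91.8, 130 and 136 CPM on day 0 and 109, 123 and 132 CPM on day 5. In the telencephalon they were 91.3, 119 and 125 CPM on day 0 and 138, 149 and 123 CPM on day 5. The groups overlapped in both regions; the log2 change was 0.04 ± 0.10 (SE) in the brainstem (adjusted p = 0.74) and 0.30 ± 0.10 in the telencephalon (adjusted p = 0.0126), the latter with 2 of 3 cultures higher and lost without culture 38 or culture 41, with no filter on low counts (0.25, adjusted p = 0.0961) or with no replicate block (0.29, adjusted p = 0.158). Ddit3, which encodes CHOP, stood at 2.85, 2.92 and 3.49 CPM in the brainstem on day 0 and at 14.1, 12.2 and 13.0 CPM on day 5. In the telencephalon it went from 4.26, 3.01 and 3.05 CPM to 14.8, 15.2 and 12.4 CPM. No day 5 culture overlapped day 0, and the log2 changes were 2.10 ± 0.18 (adjusted p = 7.5e-11) and 2.07 ± 0.18 (adjusted p = 7.73e-11). Ddit3 overlaps Mars, so its reads are uncertain where the counting could not separate the 2 genes. The annotation held 2 entries named Ddit3, and only the counts of the first were used.

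Atf3, an early stress-induced factor, gave the largest log2 change of the list from day 0 to day 5 in controls. It stood at 0.322, 0.382 and 0.513 CPM in the brainstem on day 0 and at 25.4, 16.3 and 12.8 CPM on day 5, and in the telencephalon it went from 0.593, 0.576 and 0.855 to 38.5, 21.4 and 15.3 CPM. It was still at 0.496 to 0.849 CPM on day 2 in the brainstem and at 0.594 to 2.41 CPM in the telencephalon, so most of the difference lay between day 2 and day 5. The log2 changes to day 5 were 5.48 ± 0.50 (adjusted p = 3.21e-10) and 5.14 ± 0.49 (adjusted p = 6.05e-10). Cebpb rose by 1.37 and 2.34 and Cebpg, a dimer partner of ATF4, by 0.39 and 0.38 on the log2 scale. Atf5 was at 0.01 ± 0.25 and 0.55 ± 0.25 and was not called in either region.

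Of the stress effectors, Vegfa, a secreted angiogenic factor, went from 3.61, 3.75 and 3.49 to 24.0, 29.7 and 23.8 CPM in the brainstem and from 2.15, 4.82 and 4.39 to 37.0, 32.7 and 28.7 CPM in the telencephalon. All day 5 cultures lay above all day 0 cultures, and the log2 changes were 2.83 ± 0.37 (adjusted p = 1.61e-07) and 3.13 ± 0.37 (adjusted p = 3.74e-08). Chac1, which degrades glutathione, went from 2.06, 1.27 and 2.34 to 3.47, 8.89 and 9.53 CPM in the brainstem and from 1.27, 2.48 and 1.94 to 6.14, 18.7 and 7.71 CPM in the telencephalon. Its log2 changes were 1.96 ± 0.33 and 2.45 ± 0.33 (adjusted p = 9.54e-06 and 3.22e-07). Without the day 5 sums of cultures 41 and 42 the brainstem one was 0.72. Some wells of those sums detected the most genes of all libraries, up to 33752 in culture 41 and 32659 in culture 42. That fit leaves culture 38 alone on day 5, with its spread taken from the other groups. Trib3, a pseudokinase that ATF4 and CHOP induce, differed between regions in its course. In the telencephalon it went from 0.614, 1.19 and 1.03 to 2.81, 8.98 and 3.57 CPM (2.37 ± 0.41, adjusted p = 1.07e-05), while in the brainstem it went from 2.35, 2.34 and 2.15 to 1.69, 3.96 and 3.01 CPM (0.41 ± 0.38, adjusted p = 0.355), and that difference between regions was not tested. Ppp1r15a rose by 0.68 and 1.16, Ddit4, an inhibitor of mTORC1, by 0.90 and 0.65, and Eif2ak3 by 0.47 and 0.45 on the log2 scale. Nupr1 was called in the telencephalon alone (2.25 ± 0.69, adjusted p = 0.00623, against 1.31 ± 0.71 in the brainstem), at levels under 1 CPM. Sesn2, a leucine sensor that restrains mTORC1, fell by 1.43 and 1.03, Stc2, a secreted glycoprotein, fell by 1.94 and 1.78, and Gdf15, a secreted cytokine, fell by 1.84 and 1.65 on the log2 scale.

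Within amino acid synthesis, 2 courses were seen. Asns, which makes asparagine, was lower by day 2 in all cultures and stayed low, going from day 0 to day 5 from 75.4, 79.3 and 90.0 to 25.0, 33.3 and 31.4 CPM in the brainstem and from 79.0, 92.0 and 81.4 to 29.6, 47.4 and 31.1 CPM in the telencephalon. No day 5 culture reached a day 0 culture, and the log2 changes were -1.44 ± 0.21 (adjusted p = 1.08e-06) and -1.24 ± 0.21 (adjusted p = 9.52e-06). The mitochondrial one-carbon enzymes Shmt2 (-1.003 and -1.06) and Mthfd2 (-1.25 and -1.11), mitochondrial PEPCK Pck2 (-1.89 and -0.90) and the proline enzymes Aldh18a1 (-1.16 and -0.91) and Pycr1 (-0.81 and -0.93) fell with it. The serine genes took another course. Phgdh was at 104, 93.9 and 111 CPM in the brainstem on day 0, at 50.5, 42.2 and 38.7 CPM on day 2 and at 148, 127 and 83.4 CPM on day 5, and in the telencephalon at 158 to 170, 42.7 to 63.3 and 148 to 159 CPM on the same days. Its day 5 log2 changes were 0.17 ± 0.25 and -0.11 ± 0.25, and neither passed the test. Psat1 (0.11 and -0.17) and Psph (-0.26 and 0.07) were not called on day 5 either. Aldh1l2, the mitochondrial formyltetrahydrofolate dehydrogenase, rose on day 1 in both regions (0.59 ± 0.15 and 0.53 ± 0.15, adjusted p = 0.00608 and 0.00656) and was at -0.25 and -0.03 on day 5. Psph overlaps Cct6a and Aldh1l2 overlaps D10Wsu102e, so both carry the uncertainty of overlap given for Ddit3.

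The transporters also parted. Slc7a5, the LAT1 light chain for large neutral amino acids, went from 52.3, 79.0 and 78.3 to 8.21, 13.5 and 9.26 CPM in the brainstem and from 57.1, 85.4 and 79.3 to 22.04, 21.8 and 35.8 CPM in the telencephalon. The groups did not overlap, and the log2 changes were -2.77 ± 0.33 (adjusted p = 3.16e-08) and -1.51 ± 0.31 (adjusted p = 0.000139). Slc3a2, the heavy chain that carries LAT1 and xCT to the membrane, was at 40.2 to 46.1 CPM on day 2 in the brainstem and at 103 to 134 CPM on day 5, against 54.8 to 71.5 CPM on day 0, and it rose by 0.86 and 1.29 on the log2 scale (adjusted p = 7.37e-05 and 1.98e-07). The cationic amino acid transporters fell. Slc7a3 went from 10.0, 10.7 and 10.3 to 0.503, 0.977 and 0.948 CPM in the brainstem and from 8.34, 18.4 and 8.42 to 0.589, 0.940 and 0.870 CPM in the telencephalon (-3.67 ± 0.55 and -3.85 ± 0.56, adjusted p = 1.55e-06 and 9.29e-07), and Slc7a1 fell by 1.99 and 1.04 on the log2 scale.

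**Figure D2:**
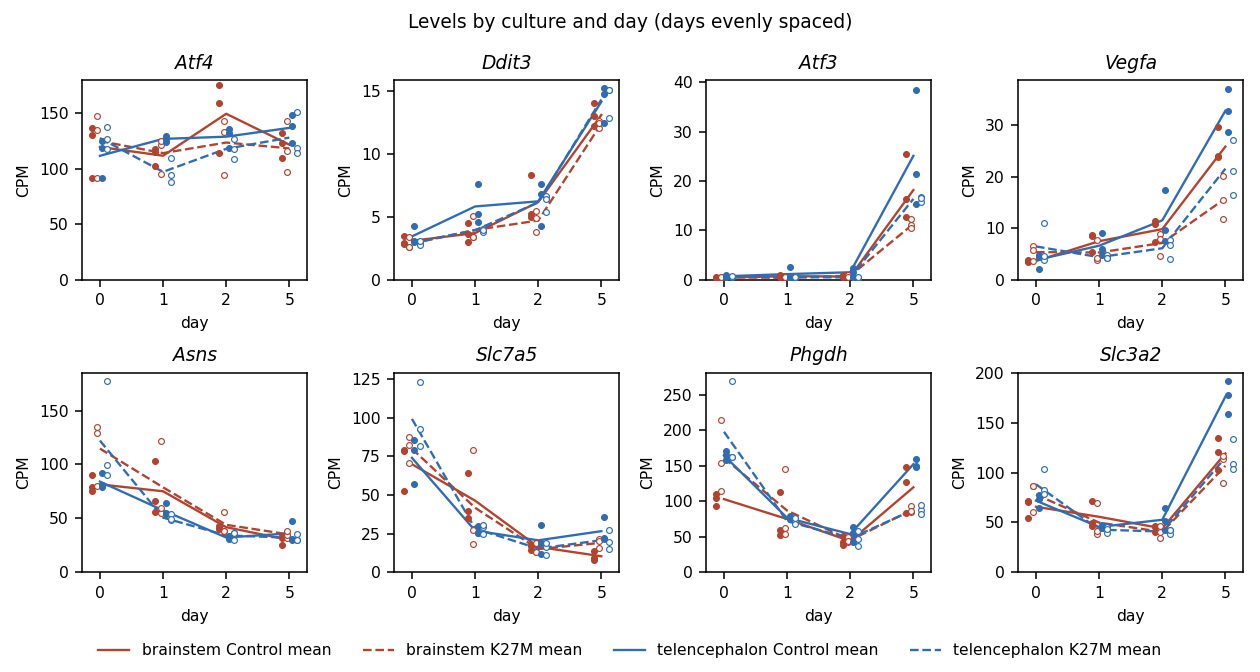
CPM (vertical axes, from 0) by day (horizontal axes, evenly spaced) of 8 members; points are culture sums, filled for Control and open for K27M, and lines are means of 3 cultures. Atf4 stays between 87.6 and 175 CPM, Ddit3, Atf3 and Vegfa climb to day 5, Asns and Slc7a5 decline, and Phgdh and Slc3a2 dip on days 1 and 2 and are higher again on day 5.

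On day 1 the 2 regions gave different counts. In telencephalon controls 3 of 33 members rose (Ddit3, Psat1, Aldh1l2) and 10 fell, where 17.3% of all genes rose and 18.8% fell. The 10 were Slc7a5 (-1.44 ± 0.31), Phgdh (-1.10 ± 0.25), Pck2 (-0.98), Cth (-0.92), Stc2 (-0.89), Mthfd2 (-0.82), Shmt2 (-0.77), Slc3a2 (-0.66), Asns (-0.55) and Psph (-0.37). In brainstem controls 3 rose (Vegfa 1.04, Pycr1 1.00, Aldh1l2 0.59) and Psph fell by 0.42, where 11.1% of all genes rose and 9.66% fell. The spread between brainstem cultures was wide on day 1. Culture 38, at passage 7, held Slc7a5 at 63.9, Asns at 103, Phgdh at 114 and Slc7a3 at 24.9 CPM, while cultures 41 and 42 held them at 35.3 and 39.6, 56.2 and 65.8, 59.0 and 52.1, and 6.81 and 7.65 CPM. The mature oligodendrocyte markers summed to 1311 CPM in culture 38 and to 1988 and 2625 CPM in the other two. With no replicate block for the culture line 1 member was called in the brainstem and 8 in the telencephalon.

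In proliferating K27M cultures on day 0, 2 members were called, and they were the same in both regions. Chac1 and Nupr1 rose with K27M, at 2 of 33 members in each region, where 2.07% of all genes were called in the brainstem and 0.443% in the telencephalon. Chac1 was at 2.06, 1.27 and 2.34 CPM in brainstem control cultures 38, 41 and 42 and at 3.46, 4.57 and 5.82 CPM in K27M. In the telencephalon it was at 1.27, 2.48 and 1.94 CPM in controls and at 3.05, 6.55 and 4.90 CPM in K27M. The culture sums did not overlap in either region, 9 of 9 brainstem and 8 of 9 telencephalon K27M wells lay above the highest control well, and the log2 differences were 1.30 ± 0.20 (adjusted p = 0.017) and 1.33 ± 0.20 (adjusted p = 0.0385). Nupr1, a small stress-induced nuclear protein, was scarce: it was at 0.0586, 0.113 and 0.110 CPM in brainstem controls against 0.161, 1.25 and 0.524 CPM in K27M, and at 0.0481, 0.259 and 0.0950 CPM against 0.303, 2.01 and 0.339 CPM in the telencephalon. Those levels stand for 47 counts over 9 brainstem control wells and 363 over 9 K27M wells, and for 56 and 380 counts in the telencephalon. Its log2 differences were 2.53 ± 0.40 (adjusted p = 0.0181) and 2.51 ± 0.39 (adjusted p = 0.0417). Both genes hold the core shown above. Atf3, Trib3, Fgf21, Asns, Pck2, Pycr1 and Slc7a11 hold it too and were not called on day 0, and its part was not tested.

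The day 0 calls rest on the cultures being matched by number. With no replicate block 0 members were called in either region, and leaving out 1 culture left 0 to 6 calls in the brainstem and 0 or 1 in the telencephalon, with 0 in both regions without culture 41. Without 1 culture, Chac1 was at 1.04 to 1.60 in the brainstem, where the call was lost without culture 41 or 42, and at 1.30 to 1.36 in the telencephalon, where it was lost without any of the 3. DESeq2 on the same sums called 6 and 11 members. No share over all genes is given for DESeq2 or the other alternatives, here or below. The 8 vascular and fibroblast markers summed to 3.67 to 7.38 CPM in brainstem controls and to 8.46 to 19.2 CPM in K27M, and to 8.74 to 10.4 and 8.45 to 13.7 CPM in the telencephalon; their part was not tested.

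**Figure D3:**
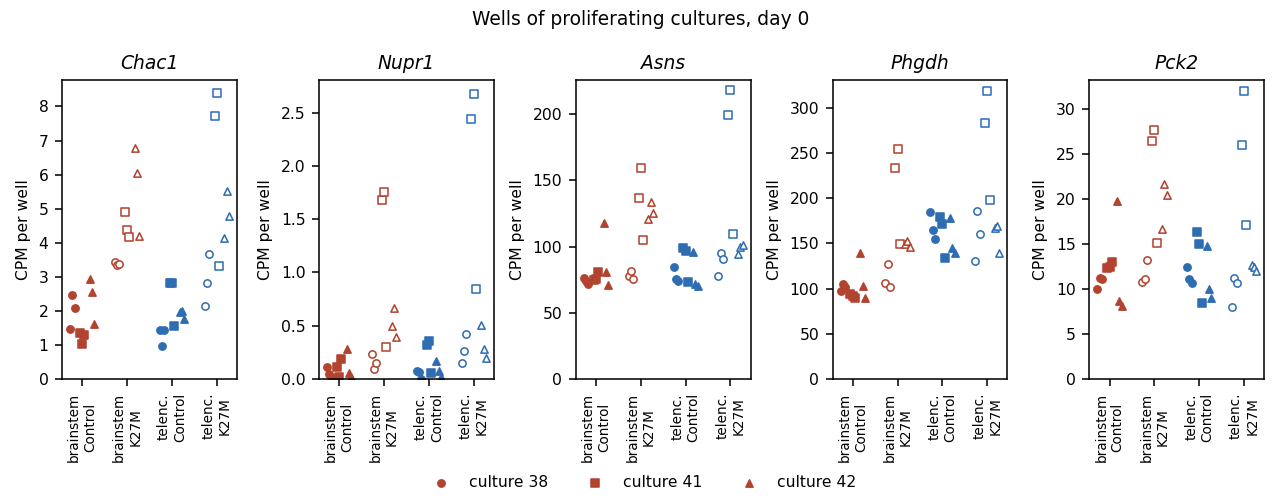
CPM per well (vertical axes, from 0) on day 0 for 5 members, with cultures 38 (circles), 41 (squares) and 42 (triangles) side by side, filled for Control and open for K27M. Chac1 is higher in K27M in both regions, and for Nupr1, Asns, Phgdh and Pck2 the highest wells are those of K27M culture 41.

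Most members on day 0 leaned the same way, and only Chac1 and Nupr1 passed the test. Of the 33, with Chac1 and Nupr1 included, 27 had a positive log2 difference in each region. The medians were 0.20 and 0.27, where the medians over all genes were 0.00 and -0.01. Members were measured in the same cultures, so their signs are not independent of each other. All 11 synthesis genes were positive in the brainstem and 10 of 11 in the telencephalon, and all 5 transporters in both. Asns was at 75.4, 79.3 and 90.0 CPM in brainstem controls and at 79.7, 135 and 130 CPM in K27M, and at 79.0, 92.0 and 81.4 CPM against 89.8, 177 and 99.3 CPM in the telencephalon (0.46 ± 0.16 and 0.47 ± 0.16, adjusted p = 0.228 and 0.218). K27M culture 41 was the highest K27M culture in both regions for Asns, Phgdh (215 and 269 CPM), Pck2 (23.4 and 25.3 CPM) and Slc7a3 (29.9 and 44.4 CPM), and it was at passage 1 or 2 in the brainstem and 1 in the telencephalon, against 4 and 2 to 3 in its controls. With passage in the model 0 and 3 members were called. Trib3 was at 2.35, 2.34 and 2.15 CPM in brainstem controls and 2.01, 2.25 and 3.23 CPM in K27M, and at 0.614, 1.19 and 1.03 against 1.37, 2.44 and 1.81 CPM in the telencephalon (1.00 ± 0.20, adjusted p = 0.0831). Atf4 (0.06 ± 0.07 and 0.20 ± 0.07) and Ddit3 (2.60 to 3.36 CPM in K27M) were not called. Ddit4 lay lower in all 3 K27M cultures of each region (-0.39 ± 0.08 and -0.33 ± 0.08, adjusted p = 0.0523 and 0.123).

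On days 1 and 2 no member was called in either region by edgeR, where 0.243% and 0.661% of all genes were called in the brainstem and 0.0261% and 0.178% in the telencephalon. At an unadjusted p under 0.05 there were 2 and 5 members in the brainstem and 3 and 3 in the telencephalon. Of all 23003 genes, 2943 and 2896 passed it in the brainstem and 2630 and 3578 in the telencephalon. DESeq2 on the same sums called 0 and 2, and 0 and 2. On day 1 the brainstem cultures went in opposite directions. K27M culture 42 held Slc7a5 at 79.2, Asns at 122, Phgdh at 145 and Slc7a3 at 23.0 CPM, against 27.6 and 18.3, 55.1 and 59.8, 62.5 and 53.2, and 6.20 and 5.55 CPM in K27M cultures 38 and 41. Among controls it was culture 38 that was high, so the K27M difference for these genes was negative in culture 38 and positive in culture 42. Mature oligodendrocyte markers summed to 825 CPM in K27M culture 42 and to 4539 and 7167 CPM in the other two K27M cultures, and its cycling genes to 2546 CPM; their part was not tested.

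By day 5, K27M brainstem cultures held more Slc7a3, Slc7a5 and Pck2 than controls. The count of members called was 4, where 5.51% of all genes were called, and none of the 4 was lower. The other one was Fgf21, which passed the filter on low counts through these same K27M cultures, so its call is no test and its values are given as a description. Slc7a3 was at 0.503, 0.977 and 0.948 CPM in controls and at 4.85, 4.33 and 3.53 CPM in K27M, with all 9 K27M wells above the highest control well (2.44 ± 0.33, adjusted p = 0.0176). Slc7a5 was at 8.21, 13.5 and 9.26 CPM against 15.5, 21.3 and 20.4 CPM (0.90 ± 0.12, adjusted p = 0.0187), and 8 of 9 K27M wells lay above the highest control well. Slc7a5 overlaps Gm20388. Pck2 was at 4.50, 3.37 and 2.40 CPM against 6.76, 8.08 and 7.88 CPM (1.18 ± 0.24, adjusted p = 0.0418), with no overlap of wells. Fgf21, a secreted metabolic hormone, had 1 count over 9 control wells and 99 counts over 9 K27M wells, each of which held at least 1 count. The ratio of pooled counts per unscaled library total was 164, with a 95% exact interval of 28.8 to 6555 that covers counting error only. In the telencephalon Fgf21 had 0 counts in 9 control wells and 18 counts in 8 of 9 K27M wells. With the control group set to a floor of 3 counts the ratio was 6.27, which leaves out counting error in the 18 counts.

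The calls depended on the cultures and settings used, and marker sums of the same cultures are given beside them. Each of the 4 calls was lost without culture 41 or culture 42, and each fit without 1 culture leaves 2 against 2. Against control culture 38 alone, an arm of 1 sum whose spread is taken from the other groups, the differences were 3.26 for Slc7a3, 0.91 for Slc7a5 and 0.58 for Pck2. With passage in the model 1 member was called, with no replicate block 2, and DESeq2 on the same sums called 11. The astrocyte markers summed to 2896, 421 and 494 CPM in brainstem control cultures 38, 41 and 42 and to 1737, 3196 and 2061 CPM in K27M, and the mature oligodendrocyte markers to 47080 to 59670 CPM in controls and 33110 to 38570 CPM in K27M. The vascular and fibroblast markers summed to 1.37 to 3.86 CPM in controls and 7.17 to 10.9 CPM in K27M, and the part of none of these was tested.

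In the telencephalon on day 5 no member was called by edgeR, where 0.409% of all genes were called. An unadjusted p under 0.05 was reached by 13 members and by 3067 of all 23003 genes, and DESeq2 on the same sums called 6. Slc7a3 was at 0.967, 2.24 and 2.85 CPM in K27M against 0.589, 0.940 and 0.870 CPM in controls, higher in all 3 cultures (1.24 ± 0.32, adjusted p = 0.189). Pck2 and Slc7a5 lay the other way from the brainstem, at 2.73, 4.38 and 6.77 against 5.56, 5.66 and 9.18 CPM and at 15.0, 19.8 and 27.3 against 22.04, 21.8 and 35.8 CPM. Phgdh was at 82.0 to 94.3 CPM in K27M and at 148 to 159 CPM in controls (-0.79 ± 0.15, adjusted p = 0.107), and Slc3a2 at 104 to 134 against 158 to 192 CPM (-0.62 ± 0.13, adjusted p = 0.129). Ddit3 was at 12.1 to 12.6 CPM in brainstem K27M and 12.9 to 15.1 CPM in telencephalon K27M, within or next to the control range of each region. Asns was at 32.2 to 38.5 and 30.2 to 35.8 CPM in the same groups, and Trib3 at 1.97 to 2.45 and 1.92 to 2.10 CPM. Vegfa lay lower in all 3 K27M cultures of each region with no overlap, at 11.7 to 20.1 CPM in the brainstem and 16.4 to 27.2 CPM in the telencephalon (-0.74 ± 0.23 and -0.63 ± 0.23, adjusted p = 0.105 and 0.322).

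**Figure D4:**
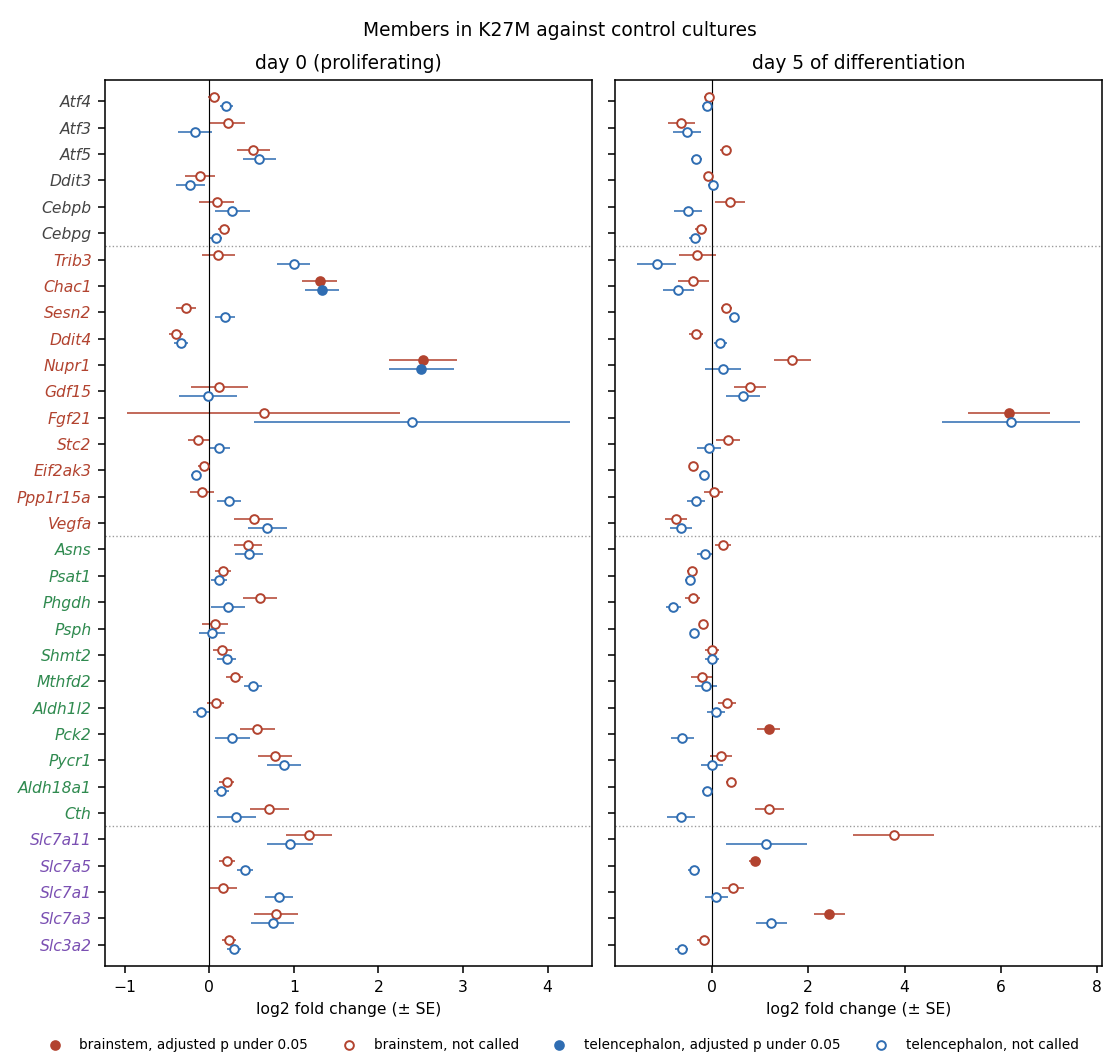
Log2 difference between K27M and Control (horizontal axis, points, with SE as bars) for each member on day 0 (left) and day 5 (right), in the brainstem (red) and the telencephalon (blue), 3 cultures each; filled points passed an adjusted p of 0.05. On day 0 Chac1 and Nupr1 are filled in both regions, and on day 5 Slc7a3, Slc7a5, Pck2 and Fgf21 are filled in the brainstem alone (Fgf21 passed the low count filter through those K27M cultures, so its filled point is no test), where the difference between regions did not pass its own test.

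The difference of the K27M effects between regions was itself tested. By edgeR no member was called on days 0, 1, 2 or 5, where 0.00435%, 0.0%, 0.0261% and 0.0% of all genes were called. At an unadjusted p under 0.05 there were 3, 3, 2 and 9 members, where 2736, 3554, 1741 and 4454 of all 23003 genes passed it. DESeq2 on the same sums called 0, 0, 2 and 4. On day 5 all 5 transporters had a larger log2 difference in the brainstem, with a median gap of 1.202 between regions where it was -0.02 over all genes. The gap was 1.27 ± 0.18 for Slc7a5 (adjusted p = 0.132), 1.79 ± 0.34 for Pck2 (adjusted p = 0.148) and 1.83 ± 0.42 for Cth, which makes cysteine from cystathionine (adjusted p = 0.155).

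Between control cultures of the 2 regions few members differed. Trib3 was higher in the brainstem on day 0 (1.27 ± 0.29, adjusted p = 0.0339), at the levels given above, and was the 1 member called, where 3.94% of all genes were called. On day 1 Trib3 was at 4.87, 1.69 and 1.22 CPM in the brainstem and at 0.638, 0.577 and 0.691 CPM in the telencephalon (2.03 ± 0.54, adjusted p = 0.0419), and Psat1 was at 318, 258 and 294 against 402, 429 and 482 CPM (-0.59 ± 0.14, adjusted p = 0.0295); these were 2 members, where 7.58% of all genes were called. On day 2 Shmt2 was at 47.9, 44.4 and 44.4 CPM in the brainstem against 32.1, 30.2 and 33.2 CPM (0.52 ± 0.11, adjusted p = 0.0358) and Mthfd2 at 18.1, 19.7 and 15.5 against 10.7, 11.7 and 11.9 CPM (0.64 ± 0.14, adjusted p = 0.0482), where 1.9% of all genes were called. On day 5 Slc7a5 was lower in the brainstem (-1.37 ± 0.28, adjusted p = 0.0466) and so was Slc7a11, where 1.01% of all genes were called. The cultures of the 2 regions did not overlap in any of these 7 calls. Each of the 7 was lost with passage as a covariate, and 2 were kept with a replicate block by culture number.

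Between K27M cultures of the 2 regions no member was called by edgeR on any day, where 2.64%, 1.33%, 0.626% and 1.24% of all genes were called on days 0, 1, 2 and 5. At an unadjusted p under 0.05 there were 2, 5, 3 and 4 members, where 3149, 2882, 1699 and 3150 of all 23003 genes passed it. DESeq2 on the same sums called 2, 0, 0 and 0.

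Slc7a11, the light chain of the cystine-glutamate exchanger xCT, differed widely between regions and, in the telencephalon, between cultures. In brainstem controls it was at 2.61, 3.16 and 3.76 CPM on day 0, 3.33, 0.577 and 1.199 CPM on day 1, 0.275, 0.801 and 0.464 CPM on day 2 and 2.36, 0.995 and 1.17 CPM on day 5. In telencephalon controls it was at 3.40, 11.2 and 10.6 CPM on day 0, 2.02, 2.35 and 9.87 CPM on day 1, 3.70, 1.59 and 18.3 CPM on day 2 and 33.1, 15.6 and 84.4 CPM on day 5. The 2 regions did not overlap on days 2 and 5, and the day 5 log2 difference was -4.86 ± 0.98 (adjusted p = 0.0458). From day 0 to day 5 it rose in telencephalon controls (2.07 ± 0.73, adjusted p = 0.0157) and lay lower in all 3 brainstem cultures (-1.19 ± 0.72, adjusted p = 0.148). The telencephalon rise was lost without culture 38 (1.38, adjusted p = 0.211) or culture 42 (1.70, adjusted p = 0.124).

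With K27M, Slc7a11 was at 14.1, 27.1 and 19.8 CPM in the brainstem on day 5, above every brainstem control. All 9 K27M wells, at 13.3 to 28.2 CPM, lay above the highest control well, at 2.39 CPM. The log2 difference of 3.77 ± 0.83 missed the threshold (adjusted p = 0.0503). It passed under 9 alternatives, among them another scaling (adjusted p = 0.0473) and DESeq2 on the same sums (adjusted p = 0.000171). It did not pass with no replicate block, with passage as a covariate, or without culture 41 or culture 42. Nor did it pass without the brainstem control day 5 sums of cultures 41 and 42. That last fit leaves no replicate among the brainstem controls of day 5, so it cannot decide the question. With a culture left out, the log2 difference was 3.29 to 4.38. Telencephalon K27M cultures were at 13.0, 104 and 273 CPM, a spread that covers the controls (1.13 ± 0.84, adjusted p = 0.60). On day 0 it lay higher in all 3 K27M cultures of each region, at 4.04, 10.1 and 8.63 CPM in the brainstem and 6.67, 36.0 and 12.3 CPM in the telencephalon (1.18 ± 0.27 and 0.96 ± 0.27, adjusted p = 0.0708 and 0.163).

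Astrocyte markers varied over the same cultures. On day 5 the 8 markers summed to 7677, 3292 and 13400 CPM in telencephalon control cultures 38, 41 and 42, in the order of their Slc7a11 levels, and to 754, 3074 and 6023 CPM in telencephalon K27M, again in that order. In the brainstem the sums were 2896, 421 and 494 CPM in controls, with Slc7a11 at 2.36, 0.995 and 1.17 CPM, and 1737, 3196 and 2061 CPM in K27M, with Slc7a11 at 14.1, 27.1 and 19.8 CPM, so the order was shared within each of these groups as well. Between Control and K27M cultures of the same number it was not always shared. Brainstem culture 38 and telencephalon cultures 41 and 42 had lower sums in K27M, while their Slc7a11 was higher. In telencephalon cultures 41 and 42 Slc7a11 was at 15.6 and 84.4 CPM in controls and at 104 and 273 CPM in K27M. Brainstem cultures 41 and 42 and telencephalon culture 38 kept the order. Control culture 38 held the highest sum of the brainstem controls, with Gfap at 928 CPM and Aqp4 at 247 CPM. The part of astrocytes in the Slc7a11 differences was not tested.

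**Figure D5:**
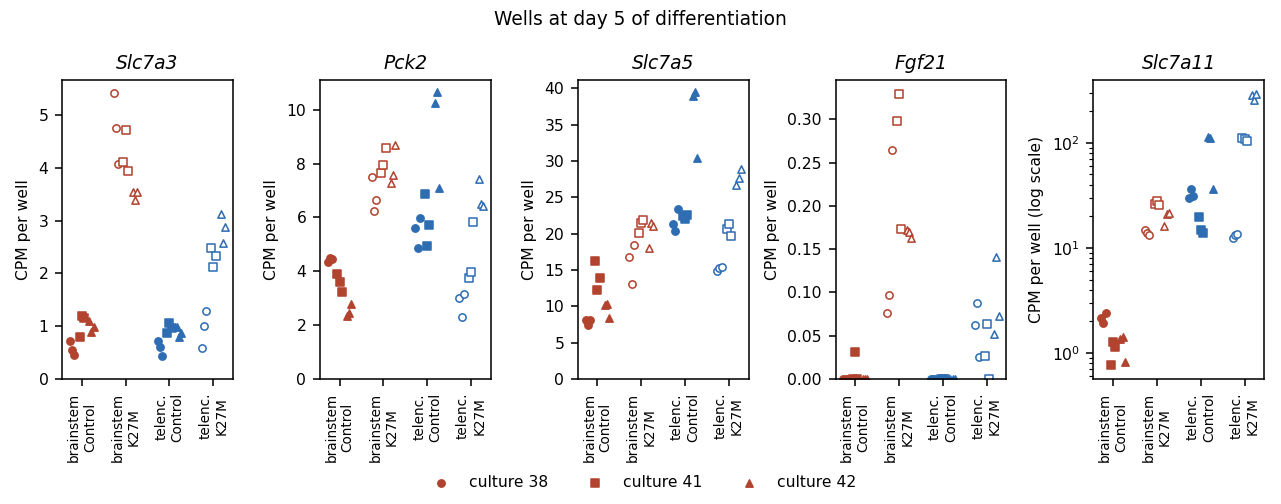
CPM per well (vertical axes; linear from 0, and log scale for Slc7a11) on day 5, with cultures 38 (circles), 41 (squares) and 42 (triangles), filled for Control and open for K27M. In the brainstem the K27M wells of Slc7a3, Pck2, Fgf21 and Slc7a11 lie above all control wells, while in the telencephalon the groups overlap for all 5 genes shown.

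Genes near the members in the pathway were counted from 7 further lists, beside shares over all genes of 34.2% higher and 29.9% lower in brainstem controls and 34.3% and 27.9% in telencephalon controls by day 5. Of 22 endoplasmic reticulum chaperones and other unfolded protein response genes, 8 rose and 7 fell by day 5 in brainstem controls and 7 and 5 in telencephalon controls, among them Dnajb9, a co-chaperone, at 1.28 and 1.83 and Manf at -0.71 and -0.61 on the log2 scale. Of 19 genes for aminoacyl tRNA synthetases, a list that includes the tRNA exporter Xpot, 3 rose and 8 fell, and 1 and 8. Iars rose by 1.02 and 1.101 on the log2 scale while Rars fell by 1.49 and 1.88. Of 17 other amino acid and one-carbon enzymes, 3 rose and 8 fell, and 5 and 8, with Glul, which makes glutamine, at 3.71 and 3.19 and the cytosolic Shmt1 at -3.40 and -3.80. Of 12 other amino acid transporters, 5 rose and 7 fell, and 4 and 5. Of 15 eIF2 kinase, phosphatase and exchange factor genes, 4 rose and 6 fell, and 4 and 9. The 14 hypoxia genes, of which Vegfa is also a known target, had 4 rise and 5 fall, and 7 and 2, of 13 tested, and the 10 p53 targets had 3 and 5 in each region.

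With K27M on day 0 in the brainstem, where 2.07% of all genes were called, 4 of 17 other amino acid and one-carbon enzymes rose, among them Cbs, the enzyme upstream of Cth (1.19 ± 0.16, adjusted p = 0.0109), Prodh (0.69 ± 0.13) and Gpt2 (0.59 ± 0.11). Ern1 (0.68 ± 0.13), the IRE1 sensor, was the 1 call among the 22 endoplasmic reticulum genes, Pdk1 (0.68 ± 0.13) the 1 among hypoxia genes, and Eda2r, a p53 target, fell by 0.60. With K27M on day 5 in the brainstem, where 5.51% of all genes were called, 1 of 12 other transporters and 3 of 10 p53 targets were called. Slc43a1, a large neutral amino acid transporter, rose by 1.98 ± 0.38 (adjusted p = 0.0364), and among p53 targets Mdm2 and Phlda3 fell by 0.78 and 0.52 and Trp53inp1 rose by 0.52.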

How the data were processed

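RNA was sequenced from 142 wells as stranded total RNA libraries. The authors quantified reads with Salmon 1.10.1 on mm10, and the deposited tables hold, per transcript, estimated counts, TPM and an effective length in bases; whether counting used strand is not given in the sources used here. Estimated counts were summed per gene (GENCODE M21 annotation, GRCm38) and rounded, and 0.252% to 0.377% of counts lay in transcripts that matched no gene. The most counted transcript took 8.97% to 40.5% of a library's counts. TPM was used to set levels of different genes side by side.

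Wells of a culture and day were summed, because they share cells, where the study's own model took wells as samples with culture as a term. Tests were quasi-likelihood fits in edgeR 4.0.16 under R 4.3.3, after scaling by TMM and a filterByExpr filter set by the 16 groups, with Benjamini-Hochberg adjustment over 23003 genes. Day contrasts were fitted over all 48 sums with the line as block, K27M contrasts and their difference between regions per day with culture within region as block, and region contrasts per day without block. Same-numbered control and K27M cultures deviated together in 21 of 24 pairs (r over 0.1, median 0.20), and the number comes from the labels. Pups were pooled, so p-values measure the spread between cultures. DESeq2 1.42.0 was an alternative. The fits were also run on simulated counts without culture effects, with changes set only in more abundant genes. That run cannot check the culture block or scarce members. All intervals on counts cover counting error only.

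Members and lists were chosen with earlier results of these data known. All 33 members are named; values per culture are given for Atf4, Ddit3, Trib3, Asns, Slc7a11 and up to 6 members per kind of comparison with the largest called changes at a mean of at least 1 CPM. Others named with values, Fgf21 and Nupr1 among them, were chosen after their values were seen.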

Additional observations from a re-analysis of the deposited data

Results flagged for a closer look

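In groups of 8 or 9 wells, 8 of 80 checks found a well far from the rest, where chance gives about 1 in 20 for independent wells. These wells share cells within a culture, so the 8 cannot be read against that rate. In brainstem cultures these were Ddit3 in K27M on day 5 (lowest, culture 38, 9.31 CPM against a median of 12.3), Trib3 in controls on day 2 (highest, culture 38, 2.92 against 0.611), Asns in controls on day 0 (highest, culture 42, 118 against 75.6) and on day 2 (lowest, culture 38, 33.9 against 42.1), and Slc7a11 in controls on day 0 (highest, culture 42, 6.80 against 2.81). In telencephalon cultures they were Asns in controls on day 1 (highest, culture 41, 75.2 against 54.0) and Slc7a11 in K27M culture 42 on day 1 (highest, 11.5 against 4.25) and day 2 (highest, 25.8 against 1.81).

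Some members moved one way in all 3 brainstem cultures and the other way in all 3 telencephalon cultures. With K27M these were, as log2 differences in brainstem and telencephalon, Psat1 on day 1 (0.19 and -0.36; difference 0.55 ± 0.22, adjusted p = 0.308), and on day 5 Pck2 (1.18 and -0.61), Cth (1.19 and -0.63) and Slc7a5 (0.90 and -0.36), none of which passed the edgeR test of the difference (adjusted p = 0.148, 0.155 and 0.132). From day 0 to day 5 in controls they were Psat1 (0.11 and -0.17), Psph (-0.26 and 0.0685) and Slc7a11 (-1.19 and 2.07), and that difference was not tested.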

How the results depend on the processing

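No result reversed. Values are members called, by edgeR unless named. The share of all genes called under each alternative is not given. A change in these counts therefore cannot be told apart from a change in calls over all genes. With no replicate block the day 1 change gave 1 (brainstem) and 8 (telencephalon), and K27M gave 0 and 0 on day 0 and 2 in the brainstem on day 5. A replicate block by culture number gave, between regions, 1 in K27M on day 0 and 0 in controls on days 1 and 2. RLE scaling gave 7 for K27M in the brainstem on day 5 and 1 between control regions on day 2. A transcript length offset gave 2 for brainstem day 1, 7 for K27M brainstem day 5, and 1 and 1 between control regions on days 2 and 5. Without a filter on low counts K27M gave 7 and 8 on day 0, 2 and 2 on day 2 and 9 and 6 on day 5, its regional difference 1 and 4 on days 2 and 5, and control regions 1 on day 2. DESeq2 on sums gave 6 and 11, 2 and 2, and 11 and 6 for K27M on days 0, 2 and 5, 2 and 4 for its regional difference on days 2 and 5, and between regions 3 (controls) and 2 (K27M) on day 0 and 6 in controls on day 5. DESeq2 on wells gave 5 and 6, 3 and 4, 3 and 4, and 9 and 7 for K27M on days 0, 1, 2 and 5, 2, 2 and 6 for its regional difference on days 1, 2 and 5, and between regions 3, 11, 6 and 10 in controls and 3, 8, 3 and 4 in K27M. Wells as samples gave 13 and 22 on day 1, 11 and 14, 9 and 10, 5 and 8, and 17 and 14 for K27M, 7, 5 and 8 for its regional difference on days 1, 2 and 5, and between regions 6, 14, 9 and 16 in controls and 6, 14, 9 and 10 in K27M; wells share cells. Passage as a covariate gave 0 and 1 for K27M in the brainstem on days 0 and 5, 8 in the telencephalon on day 5, 0 between control regions on each day and 1 between K27M regions on day 5. Without the brainstem control day 5 sums of cultures 41 and 42, chosen after seeing the data, K27M and control regions gave 0 and 0 on day 5, with 1 brainstem control sum left and its spread taken from the other groups. Beyond the alternatives' own construction, the cause was not tested.

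Leaving out 1 culture gave 0 to 2 and 6 to 11 for day 1, 22 to 22 and 22 to 25 for day 5, 0 to 6 and 0 to 1 for K27M on day 0, 0 to 4 in the brainstem on day 1, 0 to 11 in the brainstem on day 5 (11 without culture 38, 0 without 41 or 42), 0 to 7 for the regional difference on day 5, 0 to 1 between regions on day 0 in controls and in K27M, and in controls 0 to 0, 0 to 1 and 0 to 4 on days 1, 2 and 5; the other comparisons gave 0 throughout. With 3 cultures a group, and Fgf21, Nupr1 and Gdf15 mostly under 1 CPM, changes in scarce members are poorly resolved.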
